A study of Homo sapiens with 36 samples.

Results

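Genes of the extracellular matrix, of the integrins that bind it and of the proteases that cut it were followed across 4 groups of U373 cells, an established human glioblastoma line that lacks the protein CC3. Probes were taken by the start of their gene symbol: collagens (COL), laminins (LAM), integrin chains (ITGA, ITGB), matrix metalloproteinases (MMP), their inhibitors (TIMP), syndecans (SDC), ADAM and ADAMTS proteases, and the single genes FN1, SPARC, THBS1, LUM, FAP and PXDN. Of 157 such probes on the array, 106 were blank on every array and 51, for 49 genes, had values, out of 13041 probes with values in all, of which 9659 named 8743 genes. The groups were U373cc3 UV, U373cc3 untreated, U373neo UV and U373neo untreated, each with 3 biological replicates of 3 technical arrays, 36 Cy5 arrays in total. U373cc3 is 1 clone that stably expresses CC3 (TIP30), U373neo is 1 clone with the empty vector, and the UV cells were exposed to 20 J/m2 according to the labels and harvested 2 h later, while the methods give a lower dose. Both arms being 1 clone each, p-values measure the spread between cultures of these clones, and CC3 cannot be told apart from any other difference between them.

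The study was designed to look at gene expression behind the impaired repair of UV damage in cells with CC3. No probe named for HTATIP2, the gene of CC3, had values (0 probes), so the expressed gene could not be checked here. Array medians were 746 to 748 on the UV arrays and 895 to 896 on the untreated arrays, which had been scaled apart. The clones are therefore compared on deposited intensities within a treatment, and UV is compared on intensities of all 36 arrays normalized together, as each sentence states. The arrays came from 3 ranges of serial numbers, called A, B and C, unevenly: 3 U373cc3 UV arrays lay in A and 6 in B, 4 U373cc3 untreated arrays in A, 4 in B and 1 in C, all 9 U373neo UV arrays in A, and 5 U373neo untreated arrays in A, 1 in B and 3 in C. Of the markers of astrocytes and glioma, 4 of 14 genes had values (CHI3L1, EGFR, SLC1A2 and SOX9), and GFAP was not among them.

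The extracellular matrix is a mesh of collagens, laminins and proteoglycans that cells secrete and hold on to. Basement membranes rest on networks of type IV collagen and of laminin, a trimer of an alpha, a beta and a gamma chain. Integrins are receptors built of an alpha and a beta chain that couple this mesh to the cytoskeleton, syndecans are membrane proteoglycans that act beside them, and metalloproteinases of the MMP, ADAM and ADAMTS families cut matrix and surface proteins, with TIMPs as inhibitors. In glioma, matrix proteins and MMPs are known for their part in the invasion of brain tissue.

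The 51 probes covered these families thinly. Collagens had 10 probes with values of 42 on the array, laminins 3 of 11, integrin alpha chains 4 of 13, integrin beta chains 4 of 10, matrix metalloproteinases 5 of 22, TIMPs 1 of 4, syndecans 3 of 4, ADAMs 7 of 22 and ADAMTSs 7 of 20. Of the single genes, LUM had 2 probes with values and FAP and PXDN 1 each. Blank probes included those of FN1, THBS1, COL1A2, COL3A1, COL4A1, COL4A2, MMP1, MMP9, TIMP1 and TIMP3. A further 3 probes met the rule by their letters alone: COL4A3BP, now named CERT1, encodes a ceramide transfer protein, and the 2 ITGB3BP probes a centromere protein. On both sets of arrays 43 probes had values, 2 had them on the untreated arrays alone and 6 on the UV arrays alone.

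In untreated cells, 26 of 45 probes differed between the clones, 15 higher and 11 lower in U373cc3 (limma, adjusted p under 0.05). Over all 12300 probes, 20.8% were higher and 17.3% lower. The median log2 difference was -0.06 for the 45 probes and 0.01 for all. After UV, 24 of 49 probes differed, 16 higher and 8 lower in U373cc3, with 18.2% higher and 19.8% lower among 12343 probes. The median was then 0.08 for the 49 probes and 0.01 for all. Without the 3 probes of other proteins the counts were 13 higher and 11 lower of 42 untreated, and 14 higher and 8 lower of 47 after UV. SDC2, MMP2 and ITGA7 were more than 2-fold higher in U373cc3 with and without UV, and LUM was more than 2-fold lower in both.

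**Figure D1:**
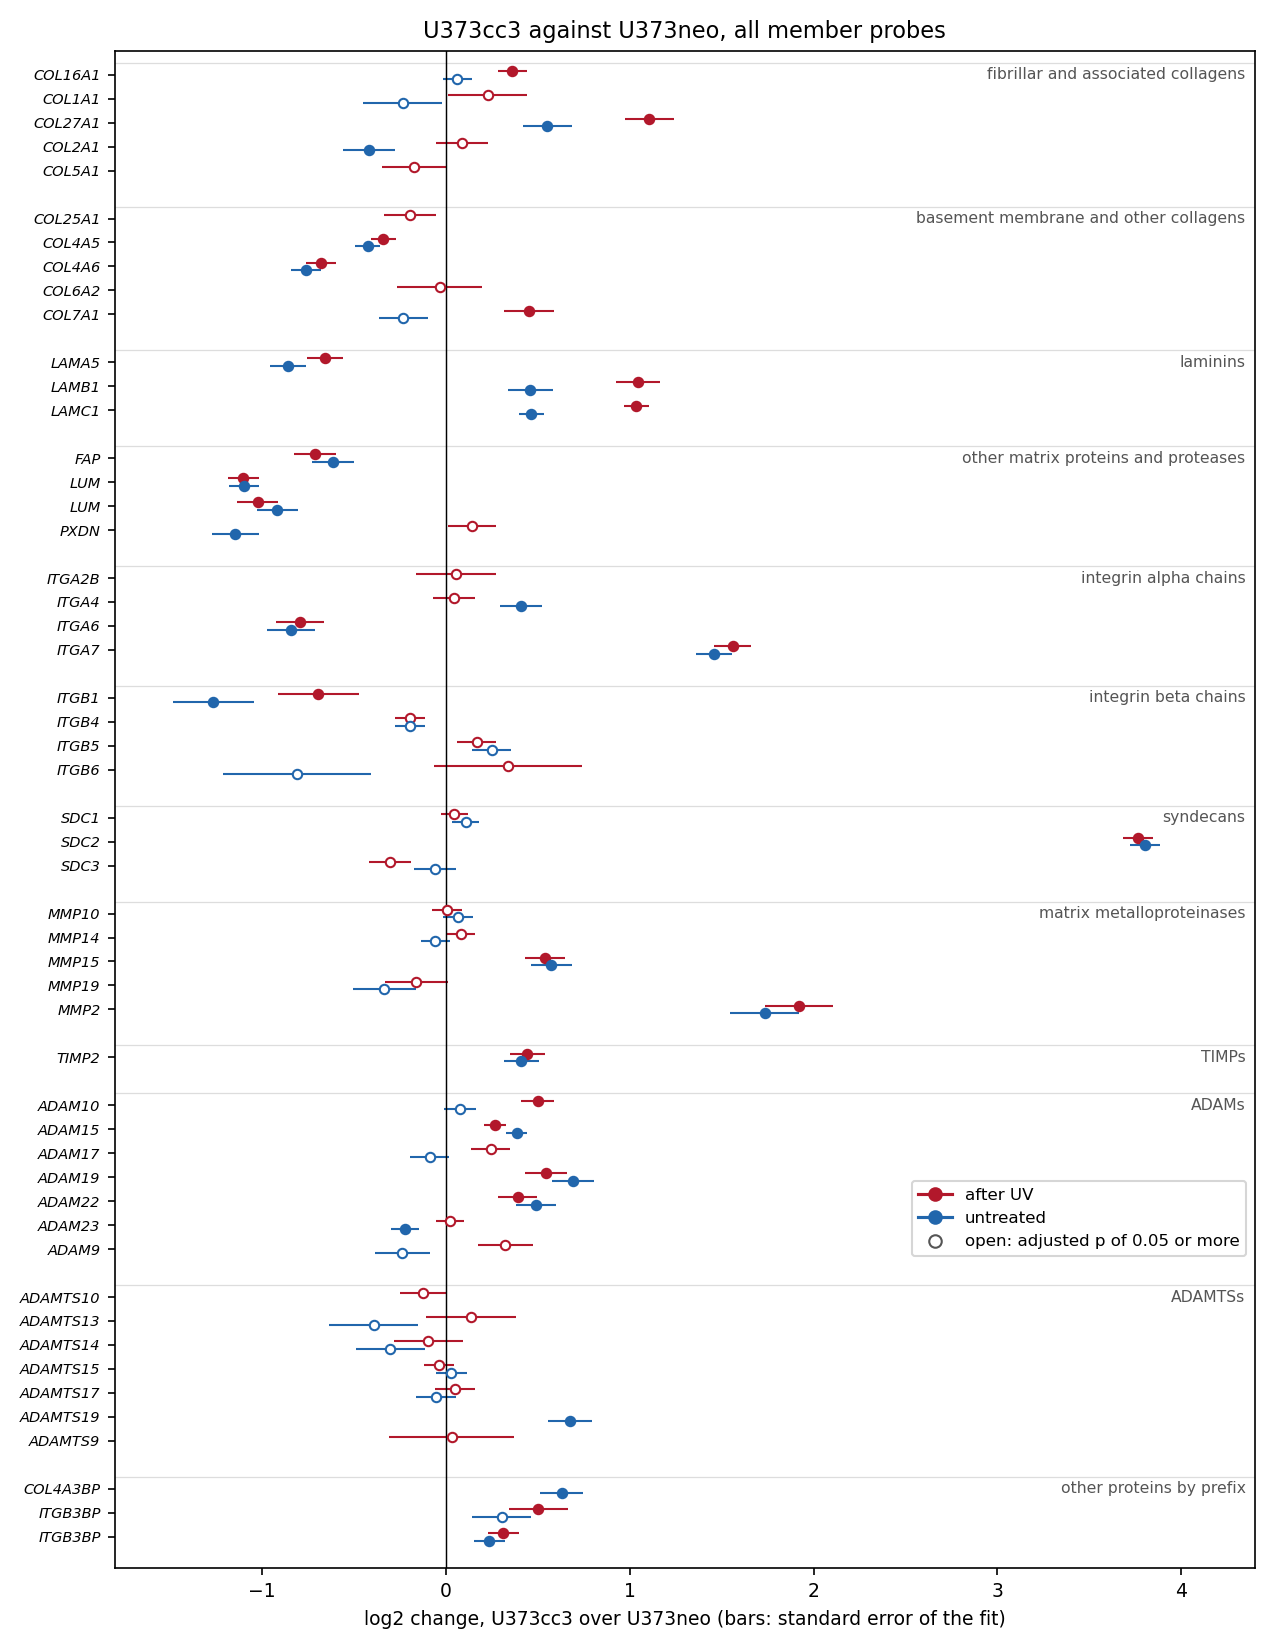
Log2 change of U373cc3 over U373neo (horizontal axis) for each of the 51 probes by class, after UV in red and untreated in blue from deposited intensities, with bars for the SE of the limma fit and open circles for an adjusted p of 0.05 or more. SDC2, MMP2 and ITGA7 lie far to the right in both, LUM to the left in both, and PXDN at -1.14 untreated but 0.14 after UV.

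Syndecan-2, a heparan sulphate proteoglycan of the cell surface, gave the largest difference. The SDC2 probe read 1554, 1657 and 1706 in U373cc3 untreated replicates, against 119, 115 and 118 in U373neo untreated replicates. After UV it read 1612, 1489 and 1319 in U373cc3, against 103, 115 and 106 in U373neo. All U373cc3 replicates lay far above all U373neo replicates, with no overlap. The differences were 3.80 ± 0.08 on the log2 scale (SE, limma adjusted p = 7.84e-11), or 14.0-fold, untreated and 3.76 ± 0.08 (limma adjusted p = 2.48e-10), or 13.6-fold, after UV. Within serial ranges A, B and C the untreated difference was 3.81, 3.60 and 3.89. The other syndecans did not pass: SDC1 read 5370.3, 4754 and 5218 in U373cc3 untreated replicates and 4994, 4610.2 and 4627 in U373neo untreated replicates, and SDC3 differed by -0.30 after UV (limma adjusted p = 0.0543). Without U373cc3 UV replicate 1 (-0.37, limma adjusted p = 0.0414) or 2 (-0.365, limma adjusted p = 0.0478), SDC3 passed.

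Among the matrix metalloproteinases, MMP2, gelatinase A, which cuts denatured and type IV collagen, was the most different. It read 719, 637 and 716 in U373cc3 untreated replicates, against 269, 141 and 236 in U373neo untreated replicates. With UV the MMP2 probe read 644, 613 and 632 in U373cc3, against 174, 178 and 149.8 in U373neo. The groups did not overlap, and the 3 U373neo untreated replicates were the most scattered. The log2 difference was 1.73 ± 0.19 (SE, limma adjusted p = 2.54e-05) untreated and 1.92 ± 0.19 (limma adjusted p = 1.06e-05) after UV. Within ranges A, B and C the untreated difference was 2.03, 1.14 and 1.39, range B holding 1 U373neo array. MMP15, a membrane-bound member, was higher by 0.57 (limma adjusted p = 0.00168) untreated and 0.54 (limma adjusted p = 0.00231) after UV. MMP10, MMP14 and MMP19 did not pass in either, and MMP19 gave the lowest differences of the family at -0.34 untreated and -0.16 after UV, and passed untreated without U373cc3 untreated replicate 3 (-0.51, limma adjusted p = 0.0308). TIMP2, which inhibits MMPs and takes part in the activation of MMP2 at the cell surface, read 2029.7, 1797 and 1904 in U373cc3 untreated replicates, against 1359, 1514 and 1442 in U373neo untreated replicates. Its log2 difference was 0.41 (limma adjusted p = 0.00545) untreated and 0.44 (limma adjusted p = 0.00321) after UV, without overlap in either.

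Integrin chains moved in both directions. ITGA7, the alpha chain of a laminin receptor best known in muscle, read 7438, 6961 and 7856 in U373cc3 untreated replicates, against 3056, 2781 and 2309 in U373neo untreated replicates. The ITGA7 probe read, after UV, 9617, 9625 and 9952 in U373cc3, against 3125, 3236 and 3564 in U373neo. The groups did not overlap. ITGA7 was higher on the log2 scale by 1.46 ± 0.10 (SE, limma adjusted p = 7.08e-07) untreated and 1.56 ± 0.10 (limma adjusted p = 4.22e-07) after UV. ITGA6, the alpha chain of another laminin receptor, went the other way, with 134, 126 and 157 in U373cc3 untreated replicates and 290.1, 252 and 209.9 in U373neo untreated replicates. The log2 difference was -0.84 (limma adjusted p = 0.000375) untreated and -0.79 (limma adjusted p = 0.000532) after UV. ITGA4, which pairs with beta-1 to bind fibronectin and VCAM1, was higher by 0.41 untreated (limma adjusted p = 0.0151), with 0.04 after UV. Its call did not hold without U373cc3 untreated replicate 3 (0.36, limma adjusted p = 0.0557) or U373neo untreated replicate 3 (0.34, limma adjusted p = 0.0617). ITGA2B, the platelet alpha chain, had values on UV arrays alone and did not pass.

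ITGB1, the beta chain shared by most matrix-binding integrins, was at lower intensity in U373cc3. Its probe read 136, 207 and 139 in U373cc3 untreated replicates, against 396, 396 and 347 in U373neo untreated replicates. After UV it read 203, 204 and 249 in U373cc3, against 519, 276 and 305 in U373neo. No replicates overlapped, but U373neo UV replicate 1 stood well above the other two of its group. For ITGB1 the log2 difference was -1.27 ± 0.22 (SE, limma adjusted p = 0.000875) untreated and -0.69 ± 0.22 (limma adjusted p = 0.0269) after UV. The call after UV did not hold without U373neo UV replicate 1 (-0.42, limma adjusted p = 0.0825), U373cc3 UV replicate 1 (-0.64, limma adjusted p = 0.0797) or U373cc3 UV replicate 2 (-0.65, limma adjusted p = 0.0773). Within serial range A, whose 3 U373cc3 UV arrays are all of replicate 3, the ITGB1 difference after UV was -0.50. Of the other beta chains, ITGB4, ITGB5 and ITGB6 did not pass in either. ITGB6 spread most between replicates, with 108, 114 and 169 in U373cc3 untreated and 123, 274 and 332 in U373neo untreated, which overlapped. Without U373neo untreated replicate 1 ITGB6 passed untreated (-1.24, limma adjusted p = 0.0223), and ITGB4 did so without U373cc3 untreated replicate 1 (-0.26, limma adjusted p = 0.0311) or U373neo untreated replicate 3 (-0.25, limma adjusted p = 0.0493).

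Laminins split by chain. LAMC1 and LAMB1 encode the gamma-1 and beta-1 chains found together in many laminin trimers, and LAMA5 an alpha chain of laminins such as laminin-511. LAMC1 read 4599.7, 4179 and 4329 in U373cc3 untreated replicates, against 3067, 3045 and 3396 in U373neo untreated replicates. LAMC1 after UV read 2154, 1997 and 1959.6 in U373cc3, against 979, 995 and 1003 in U373neo. The groups did not overlap, and the gap was wider after UV. For LAMC1 the log2 difference was 0.46 ± 0.07 (SE, limma adjusted p = 0.000273) untreated and 1.04 ± 0.07 (limma adjusted p = 6.05e-07) after UV. Within ranges A, B and C the untreated difference of LAMC1 was 0.50, 0.15 and 0.49, and within A it was 0.98 after UV. LAMB1 read 12343, 9859 and 12226 in U373cc3 untreated replicates, against 9016, 7927 and 8002 in U373neo untreated replicates. After UV it read 9841, 11569.5 and 9709 in U373cc3, against 4269.8, 5458 and 5407 in U373neo. It too was higher in every U373cc3 replicate, by 0.46 (limma adjusted p = 0.0111) untreated and 1.04 (limma adjusted p = 4.36e-05) after UV. LAMA5 was lower, with 458, 394 and 421 in U373cc3 untreated replicates, against 881, 703 and 732 in U373neo untreated replicates. Its log2 difference was -0.86 (limma adjusted p = 3.61e-05) untreated and -0.66 (limma adjusted p = 0.000236) after UV.

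The starts of the LAMC1 and LAMB1 genes are shown because both were lower after UV in U373neo, as given further on. Each run holds 250 bases before and 50 after the start of the gene, from RefSeq on GRCh38.p14. Capitals mark GC boxes, the letters GGGCGG on either strand, bound by SP1-type factors.
LAMC1 (chr1:183023170-183023469, plus strand): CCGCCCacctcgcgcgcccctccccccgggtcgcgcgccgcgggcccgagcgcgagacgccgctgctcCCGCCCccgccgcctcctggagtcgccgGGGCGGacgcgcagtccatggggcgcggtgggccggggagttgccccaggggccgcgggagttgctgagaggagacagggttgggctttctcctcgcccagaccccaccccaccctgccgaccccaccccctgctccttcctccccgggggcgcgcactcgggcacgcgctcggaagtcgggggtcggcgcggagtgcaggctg
LAMB1 (chr7:108003112-108003411, minus strand): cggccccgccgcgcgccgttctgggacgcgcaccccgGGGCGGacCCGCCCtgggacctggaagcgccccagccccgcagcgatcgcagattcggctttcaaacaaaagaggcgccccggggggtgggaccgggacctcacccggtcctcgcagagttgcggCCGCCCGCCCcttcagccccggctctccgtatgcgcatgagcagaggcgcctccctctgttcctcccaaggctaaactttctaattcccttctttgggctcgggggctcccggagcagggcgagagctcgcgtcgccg
There were 3 GC boxes in the LAMC1 window and 4, some of them overlapping, in the LAMB1 window. Of 45 windows found for 36 of the 49 genes, 35 (77.8%) held at least 1, against 45.0% of 35116 windows of the same length. Those 35116 windows were not limited to genes with values on the arrays, as the 45 were. The share over measured genes alone was not computed, so whether the difference belongs to these families was not tested. The letters TGAGTCA, the AP-1 motif, on either strand were in 0 of the 45 windows and in 4.95% of all. Both motifs were looked up with earlier values known, and a match is a description of the letters and not of binding.

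Of the type IV collagens, those of basement membranes, the genes with values, COL4A5 and COL4A6, were lower in U373cc3. Probes of COL4A1, COL4A2, COL4A3 and COL4A4 were blank. COL4A5 and COL4A6 encode type IV collagen chains and lie head to head on the X chromosome. COL4A6 read 628, 640.4 and 589 in U373cc3 untreated replicates, against 1063, 1131 and 955 in U373neo untreated replicates. COL4A6 after UV read 863, 811 and 814 in U373cc3, against 1286, 1254 and 1450.2 in U373neo. All U373cc3 replicates were the lower ones. The log2 difference was -0.76 (limma adjusted p = 2.5e-05) untreated and -0.68 (limma adjusted p = 5.42e-05) after UV. COL4A5 had the same order, with 492, 470.0 and 471 in U373cc3 untreated replicates, against 656, 624 and 645 in U373neo untreated replicates. Its log2 difference was -0.43 (limma adjusted p = 0.000513) untreated and -0.34 (limma adjusted p = 0.00214) after UV. Their start windows are shown because the pair moved the same way between clones and after UV, and were picked with these values known. LAMA5, LUM and FAP were likewise lower in U373cc3 and higher after UV in both clones. Whether the shared stretch has a part in the changes was not tested. The runs overlap on opposite strands, and capitals mark the 121 bases they share, from RefSeq on GRCh38.p14.
COL4A5 (chrX:108439588-108439887, plus strand): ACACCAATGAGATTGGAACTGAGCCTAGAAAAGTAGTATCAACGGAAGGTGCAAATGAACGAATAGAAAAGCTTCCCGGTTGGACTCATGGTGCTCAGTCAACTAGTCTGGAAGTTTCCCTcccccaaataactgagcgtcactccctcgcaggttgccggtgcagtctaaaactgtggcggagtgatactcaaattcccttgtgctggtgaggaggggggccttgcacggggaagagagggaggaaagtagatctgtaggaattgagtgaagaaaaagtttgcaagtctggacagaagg
COL4A6 (chrX:108439409-108439708, minus strand): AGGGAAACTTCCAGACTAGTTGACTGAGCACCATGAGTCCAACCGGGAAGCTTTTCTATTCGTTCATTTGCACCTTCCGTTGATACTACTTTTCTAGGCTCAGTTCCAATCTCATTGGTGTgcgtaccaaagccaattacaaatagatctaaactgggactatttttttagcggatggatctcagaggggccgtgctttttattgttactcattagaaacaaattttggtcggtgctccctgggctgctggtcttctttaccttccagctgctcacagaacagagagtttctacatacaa
Printed each on its own strand, the shared stretches are reverse complements of each other, the same bases of the chromosome.

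COL27A1, a fibrillar collagen of cartilage, was higher in U373cc3. It read 236, 179 and 203 in U373cc3 untreated replicates, against 128, 124 and 172 in U373neo untreated replicates. COL27A1 after UV read 246, 235 and 209 in U373cc3, against 103, 107 and 111 in U373neo. The groups did not overlap, narrowly so when untreated. COL27A1 was higher by 0.55 ± 0.13 (SE, limma adjusted p = 0.00644) untreated and 1.11 ± 0.13 (limma adjusted p = 5.28e-05) after UV. Within ranges A, B and C the untreated difference was 0.70, -0.09 and 0.75. COL2A1, the main cartilage collagen, had a log2 difference of -0.42 untreated (limma adjusted p = 0.0371) and gave 0.09 after UV. That call passed in 8 of 16 alternatives and did not hold without U373cc3 untreated replicate 1 or 2 or any U373neo untreated replicate (-0.34 to -0.46, limma adjusted p up to 0.126). COL16A1, a collagen that associates with fibrils, and COL7A1, of anchoring fibrils, passed after UV alone, at 0.36 (limma adjusted p = 0.00353) and 0.45 (limma adjusted p = 0.0197), with 0.06 and -0.23 untreated. The COL7A1 call did not hold without U373cc3 UV replicate 1 or 2 or U373neo UV replicate 2 or 3 (log2 differences 0.35 to 0.43, limma adjusted p from 0.0579 to 0.0842). Within serial range A the COL7A1 difference after UV was 0.36. COL1A1, a chain of the main fibrillar collagen, differed by -0.24 untreated and 0.23 after UV and did not pass. With values on UV arrays alone, COL25A1 (-0.19), COL5A1 (-0.18) and COL6A2 (-0.03) did not pass.

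The single genes lumican, fibroblast activation protein and peroxidasin were all lower in untreated U373cc3 cells. Lumican, a keratan sulphate proteoglycan that binds collagen fibrils, was measured by 2 probes. The brighter one read 1009, 996 and 958 in U373cc3 untreated replicates, against 2164, 2037 and 2145 in U373neo untreated replicates. The same probe after UV read 1254, 1062 and 1043 in U373cc3, against 2252, 2337 and 2614 in U373neo. The ranges lay far apart, and the log2 difference was -1.10 ± 0.08 both untreated (SE, limma adjusted p = 1.81e-06) and after UV (limma adjusted p = 1.59e-06). The other LUM probe gave -0.92 (limma adjusted p = 6.63e-05) and -1.02 (limma adjusted p = 2.68e-05). FAP, a surface serine protease of activated fibroblasts, read 812, 972 and 777 in U373cc3 untreated replicates, against 1320.0, 1119 and 1495 in U373neo untreated replicates. Its log2 difference was -0.62 (limma adjusted p = 0.00134) untreated and -0.71 (limma adjusted p = 0.000455) after UV, without overlap. Of 10 fibroblast markers, FAP, LUM and S100A4 had values, and their summed intensity was 4883 to 5232 in U373cc3 untreated, against 7372 to 7645 in U373neo untreated, a sum that FAP and LUM themselves enter. S100A4, the 1 marker outside the group described, differed by -0.04 untreated (limma adjusted p = 0.652) and -0.08 after UV (limma adjusted p = 0.425) and passed in neither. The part of other cell types was not tested.

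Peroxidasin, a secreted peroxidase that forms sulfilimine crosslinks in type IV collagen, differed between the clones without UV alone. PXDN read 131, 122 and 157 in U373cc3 untreated replicates, against 276, 305 and 321 in U373neo untreated replicates. After UV it read 199, 143 and 155 in U373cc3, against 137, 154 and 155 in U373neo. The untreated groups did not overlap, and the UV groups did. The log2 difference was -1.14 ± 0.13 (SE, limma adjusted p = 3.84e-05) untreated and 0.14 ± 0.13 (limma adjusted p = 0.438) after UV. Within ranges A, B and C the untreated difference was -1.34, -1.31 and -1.37.

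ADAMs are membrane-bound proteins, many of them proteases that release the ectodomains of surface proteins. Untreated, 3 of 7 were higher and 1 lower in U373cc3, beside 20.8% and 17.3% of all probes. After UV, 4 of 7 were higher and 0 lower, beside 18.2% and 19.8% of all probes. The median log2 difference of the 7 was 0.08 untreated and 0.32 after UV. ADAM19 read 645, 474 and 474 in U373cc3 untreated replicates, against 354, 329 and 297 in U373neo untreated replicates. Its log2 difference was 0.69 (limma adjusted p = 0.000626) untreated and 0.54 (limma adjusted p = 0.00281) after UV. ADAM15 gave 0.38 (limma adjusted p = 0.000359) and 0.27 (limma adjusted p = 0.00366), and ADAM22, which lacks protease activity, 0.49 (limma adjusted p = 0.0037) and 0.39 (limma adjusted p = 0.0128). ADAM23, likewise without protease activity, was at -0.22 untreated (limma adjusted p = 0.0371). The ADAM22 call after UV did not hold without U373cc3 UV replicate 2 (0.34, limma adjusted p = 0.0529), nor the ADAM23 call without U373cc3 untreated replicate 1 or 2 or U373neo untreated replicate 2 (-0.16 to -0.22, limma adjusted p up to 0.147). ADAM10, the alpha-secretase that sheds Notch and amyloid precursor protein, read 407, 421 and 352 in U373cc3 UV replicates, against 255, 287 and 292 in U373neo UV replicates. It was higher after UV by 0.50 ± 0.09 (SE, limma adjusted p = 0.000917) and differed by 0.08 untreated (limma adjusted p = 0.516). ADAM9 (-0.24 and 0.32) and ADAM17, which releases TNF, did not pass. Of the ADAMTSs, secreted proteases that cut proteoglycans and procollagens, ADAMTS19 was higher by 0.67 (limma adjusted p = 0.00101) on the untreated arrays, where alone it had values. The others did not pass, among them ADAMTS13, which cuts von Willebrand factor, at -0.39 untreated and 0.14 after UV, and ADAMTS10 at -0.12 after UV.

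The probes caught by prefix alone were also higher where they passed. COL4A3BP, measured untreated alone, differed by 0.63 (limma adjusted p = 0.0013). ITGB3BP gave 0.50 (limma adjusted p = 0.0267) after UV for its brighter probe and 0.31 (limma adjusted p = 0.0125) for the other. The call of the brighter probe did not hold without U373cc3 UV replicate 1 or 3 or U373neo UV replicate 2 (0.35 to 0.49, limma adjusted p up to 0.114). Untreated, the other ITGB3BP probe was called higher at 0.235, and passed in 6 of 16 alternatives. That call did not hold without U373cc3 untreated replicate 2 or 3 or any U373neo untreated replicate (0.16 to 0.26, limma adjusted p up to 0.177).

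**Figure D2:**
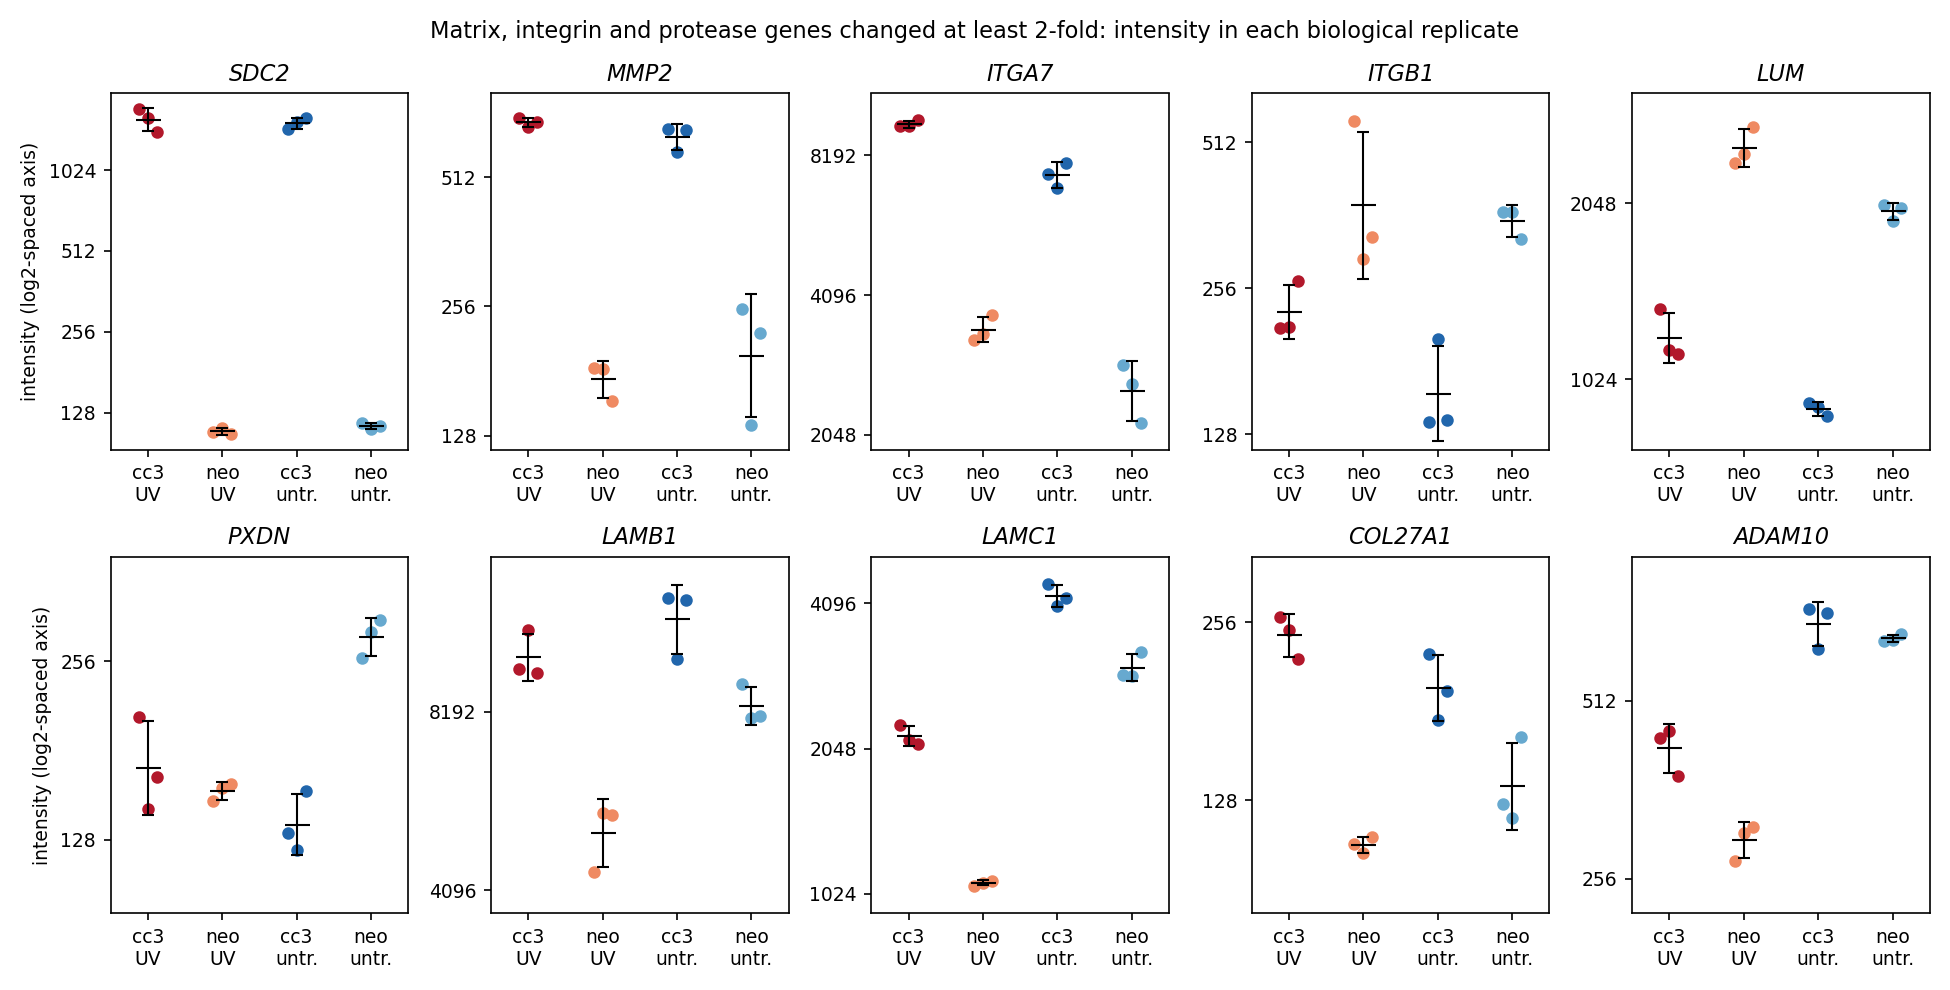
Jointly normalized intensity of each biological replicate (the mean of 3 technical arrays, on a log2-spaced vertical axis) for the 10 genes that changed at least 2-fold in a comparison, with lines for the group mean of log2 values and bars for its SD. SDC2 lies between 1420.0 and 1731 in U373cc3 UV and between 106 and 112 in U373neo UV, and PXDN separates the clones without UV but not after it.

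UV was set against no UV within each clone over 43 probes measured on both sets, on the jointly normalized intensities. In U373cc3, 20 probes were higher after UV and 3 lower, with 30.8% of 11602 probes higher and 26.9% lower. In U373neo, 13 were higher and 8 lower, with 32.8% higher and 26.7% lower among all. The median log2 change of the 43 probes was 0.30 in U373cc3 and 0.02 in U373neo, and over all probes it was 0.06 in U373cc3 and 0.07 in U373neo. The split depends on the scaling, for these probes as for all. On deposited values it was 13 higher and 9 lower in U373cc3 and 9 higher and 8 lower in U373neo, beside 2531 higher and 4025 lower in U373cc3 and 2883 higher and 3952 lower in U373neo of all 11602 probes, whose median moved to -0.04 in U373cc3 and -0.045 in U373neo. With each array centred on its median it was 26 higher and 2 lower in U373cc3 and 16 higher and 5 lower in U373neo, beside 5286 higher and 2646 lower in U373cc3 and 4996 higher and 2628 lower in U373neo of all probes, whose median was 0.20 in U373cc3 and 0.19 in U373neo. Leaving out single replicates gave 14 to 17 higher in U373cc3, beside 2944 to 3224 of all 11602 probes.

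**Figure D3:**
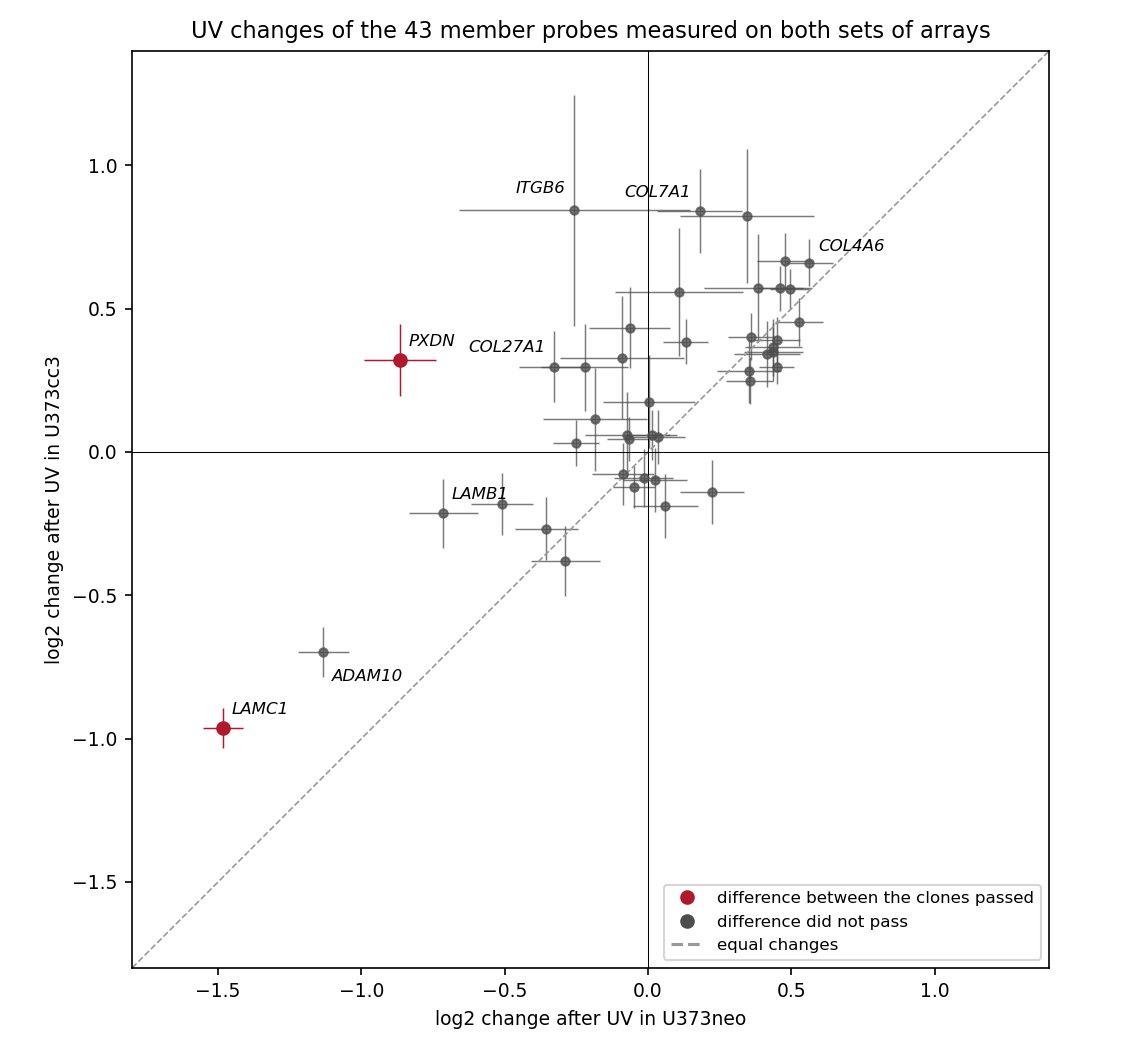
Log2 change after UV of the 43 probes measured on both sets, in U373cc3 (vertical axis) and in U373neo (horizontal axis), on jointly normalized intensities, with bars for the SE, a dashed line of equal changes and red points where the difference between the clones passed. LAMC1 is at -0.96 in U373cc3 and -1.48 in U373neo, and PXDN at 0.32 in U373cc3 and -0.87 in U373neo.

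The largest falls after UV were those of LAMC1 and ADAM10. LAMC1 read 2297, 2134 and 2095 in U373cc3 UV replicates, against 4484, 4047 and 4199 in U373cc3 untreated replicates. In U373neo it read 1064, 1080.3 and 1089 after UV, against 2914, 2892 and 3244 untreated. No UV replicate reached an untreated one in either clone. The log2 change was -0.96 ± 0.07 in U373cc3 (SE, limma adjusted p = 7.32e-07) and -1.48 ± 0.07 in U373neo (limma adjusted p = 2.43e-08), or 1.95-fold lower in U373cc3 and 2.795-fold lower in U373neo. ADAM10 read 442, 456 and 382 in U373cc3 UV replicates, against 731, 626 and 719.9 in U373cc3 untreated replicates. In U373neo it read 275, 307 and 313 after UV, against 647, 649 and 663 untreated. These groups were also apart, with log2 changes of -0.70 ± 0.09 in U373cc3 (SE, limma adjusted p = 5.11e-05) and -1.13 ± 0.09 in U373neo (limma adjusted p = 8.73e-07). Within serial range A, which alone holds U373neo UV arrays, LAMC1 changed by -1.02 in U373cc3 and -1.44 in U373neo, and ADAM10 by -0.86 in U373cc3 and -1.08 in U373neo.

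Other falls were smaller. LAMB1 read 9673, 11262 and 9547 in U373cc3 UV replicates, against 12762, 10049.6 and 12643 in U373cc3 untreated replicates, which overlapped. In U373neo it read 4391, 5538 and 5489 after UV, against 9148, 7985 and 8064 untreated, without overlap. Its log2 change was -0.21 in U373cc3 (limma adjusted p = 0.149) and -0.71 in U373neo (limma adjusted p = 0.000326), and in U373cc3 it was -0.33 without untreated replicate 2 (limma adjusted p = 0.0413). In U373neo, ADAM17 (-0.51, limma adjusted p = 0.00154), ADAMTS17 (-0.36, limma adjusted p = 0.0152), COL27A1 (-0.33, limma adjusted p = 0.0391) and COL16A1 (-0.25, limma adjusted p = 0.018) were lower. ITGA6 was lower in U373cc3 (-0.38, limma adjusted p = 0.0186), with -0.29 in U373neo (limma adjusted p = 0.058). The COL27A1 call in U373neo rests on few cultures, with -0.19 (limma adjusted p = 0.167) without untreated replicate 3 and no call without UV replicate 1, 2 or 3 (-0.30 to -0.35). The COL16A1 call did not hold without U373neo untreated replicate 2 (-0.23, limma adjusted p = 0.0577) or UV replicate 3 (-0.19, limma adjusted p = 0.081), nor the ADAMTS17 call without U373neo UV replicate 3 (-0.29, limma adjusted p = 0.0659). The ITGA6 call in U373cc3 did not hold without untreated replicate 3 or UV replicate 3 (-0.30 and -0.31), and in U373neo ITGA6 passed without untreated replicate 3 (-0.41, limma adjusted p = 0.011) or UV replicate 3 (-0.35, limma adjusted p = 0.0466). In U373cc3, ADAMTS17 passed without untreated replicate 1 (-0.35, limma adjusted p = 0.0242) or UV replicate 2 (-0.37, limma adjusted p = 0.0137).

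COL4A5, COL4A6 and LAMA5 were higher after UV in both clones. COL4A6 read 939.7, 883 and 887 in U373cc3 UV replicates, against 579.6, 591 and 544 in U373cc3 untreated replicates. In U373neo it read 1384, 1352 and 1562 after UV, against 983, 1047 and 881 untreated. Each UV replicate lay above all untreated ones of its clone. The log2 change was 0.66 in U373cc3 (limma adjusted p = 4.24e-05) and 0.56 in U373neo (limma adjusted p = 1e-04). COL4A5 rose by 0.57 (limma adjusted p = 3.71e-05) in U373cc3 and 0.49 (limma adjusted p = 7.64e-05) in U373neo, and LAMA5 by 0.67 (limma adjusted p = 0.000139) in U373cc3 and 0.48 (limma adjusted p = 0.00115) in U373neo. COL7A1 read 231, 229 and 211 in U373cc3 UV replicates, against 117, 136 and 122 in U373cc3 untreated replicates. It was higher by 0.84 in U373cc3 (limma adjusted p = 0.000547) and by 0.18 in U373neo, where it did not pass. COL2A1 was higher in U373cc3 by 0.43 (limma adjusted p = 0.0214), with -0.06 in U373neo. That call did not hold without U373cc3 untreated replicate 1 or 2 or UV replicate 1 or 3 (0.36 to 0.41, limma adjusted p up to 0.0793).

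Of the proteases, MMP14, the membrane enzyme that activates MMP2, read 325, 281 and 306 in U373cc3 UV replicates, against 201, 196 and 215 in U373cc3 untreated replicates. In U373neo it read 299.9, 281 and 279 after UV, against 201, 226 and 199 untreated. The UV replicates were higher in both clones, by 0.57 in U373cc3 (limma adjusted p = 9.25e-05) and 0.46 in U373neo (limma adjusted p = 0.000331). MMP10, stromelysin-2, rose by 0.25 in U373cc3 (limma adjusted p = 0.0224) and 0.36 in U373neo (limma adjusted p = 0.00274). The U373cc3 call passed in 6 of 15 alternatives and did not hold without untreated replicate 2 or 3 or UV replicate 2 or 3 (0.205 to 0.24, limma adjusted p up to 0.0838). MMP2 gave 0.11 in U373cc3 (limma adjusted p = 0.608) and -0.19 in U373neo (limma adjusted p = 0.405). Without U373neo untreated replicate 2, the low one, MMP2 was at -0.46 in U373neo (limma adjusted p = 0.00296). ADAMTS15, which cuts aggrecan, rose by 0.45 in U373cc3 (limma adjusted p = 0.000703) and 0.53 in U373neo (limma adjusted p = 0.000184). ADAMTS13 (0.82, limma adjusted p = 0.0105) and ADAMTS14, a procollagen protease (0.57, limma adjusted p = 0.0219), were higher in U373cc3, with ADAMTS13 at 0.35 in U373neo, which did not pass. Without U373neo untreated replicate 2 it passed there (0.71, limma adjusted p = 0.000175). The ADAMTS14 call did not hold without U373cc3 untreated replicate 1 or 2 or UV replicate 3 (0.37 to 0.555, limma adjusted p up to 0.0944), and in U373neo ADAMTS14 passed without untreated replicate 3 (0.53, limma adjusted p = 0.0389). ADAM15 rose by 0.30 in U373cc3 (limma adjusted p = 0.00144) and 0.45 in U373neo (limma adjusted p = 5.55e-05), ADAM22 by 0.35 in U373cc3 (limma adjusted p = 0.0123) and 0.44 in U373neo (limma adjusted p = 0.00293). The ADAM22 call in U373cc3 did not hold without untreated replicate 3 (0.26, limma adjusted p = 0.0563). ADAM23 rose by 0.39 in U373cc3 (limma adjusted p = 0.00135), with 0.13 in U373neo, where it passed without untreated replicate 2 (0.20, limma adjusted p = 0.0492).

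Among receptors and the single genes, ITGA7 was higher after UV by 0.36 in U373cc3 (limma adjusted p = 0.00888) and 0.44 in U373neo (limma adjusted p = 0.00262), and ITGB4, the partner of the alpha-6 chain, by 0.39 in U373cc3 (limma adjusted p = 0.00168) and 0.45 in U373neo (limma adjusted p = 0.000491). ITGB1 rose by 0.56 in U373cc3 (limma adjusted p = 0.0492), a call lost when either untreated replicate 1 or 3 or any UV replicate was left out (0.45 to 0.62, limma adjusted p up to 0.157). ITGB6 gave 0.84 in U373cc3 (limma adjusted p = 0.0913) and -0.26 in U373neo, with overlapping replicates, and passed in U373cc3 without UV replicate 1 (1.27, limma adjusted p = 0.015). ITGA4 gave -0.14 in U373cc3 and 0.22 in U373neo, and passed in U373neo without UV replicate 1 (0.315, limma adjusted p = 0.0345). The brighter LUM probe rose by 0.40 in U373cc3 (limma adjusted p = 0.00149) and 0.36 in U373neo (limma adjusted p = 0.00249). On deposited values it rose by 0.18 in both and passed in neither (limma adjusted p = 0.0916 in U373cc3 and 0.0838 in U373neo). The other LUM probe passed in 7 of 16 alternatives in U373cc3 and 13 of 16 in U373neo. Its U373cc3 call did not hold without untreated replicate 2 or 3 or UV replicate 1 or 3 (0.21 to 0.27). FAP rose by 0.34 in U373cc3 (limma adjusted p = 0.0242) and 0.41 in U373neo (limma adjusted p = 0.00866), and the U373cc3 call did not hold without untreated replicate 1 or 3 or UV replicate 2 or 3 (0.28 to 0.35). On deposited values FAP passed in neither clone, at 0.11 in U373cc3 (limma adjusted p = 0.438) and 0.20 in U373neo (limma adjusted p = 0.149). SDC2 did not pass, with 0.05 in U373cc3 (limma adjusted p = 0.628) and -0.07 in U373neo (limma adjusted p = 0.487).

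A change after UV that was not the same in both clones passed the test at 2 of 43 probes, LAMC1 and PXDN, both higher in U373cc3 and 0 lower. Over all probes the difference passed higher for 2.18% and lower for 3.99%. LAMC1 fell in both clones and less in U373cc3, with a difference of 0.52 ± 0.10 on the log2 scale (SE, limma adjusted p = 0.017). PXDN read 206, 144 and 164 in U373cc3 UV replicates, against 131, 123 and 155 in U373cc3 untreated replicates, which overlapped. In U373neo it read 149, 156 and 159 after UV, against 259.7, 287 and 300.4 untreated, well apart. The UV change was 0.32 ± 0.125 in U373cc3 (SE, limma adjusted p = 0.0454) and -0.87 ± 0.125 in U373neo (limma adjusted p = 9.94e-05), a difference of 1.19 ± 0.18 (limma adjusted p = 0.00652), or 2.28-fold. The rise in U373cc3 did not hold without untreated replicate 1 or 2 or UV replicate 1 or 3 (0.18 to 0.35, limma adjusted p from 0.07 to 0.19). That rise was 0.47 within range A and 0.06 within range B. PXDN also varied widely between technical arrays, whose SD was 0.62 on the log2 scale, at percentile 98.9 of all probes, against a median of 0.14 and 0.11 for LAMC1. Its single arrays ran from 85.5 to 290.7 in U373cc3 UV, 85.3 to 251 in U373cc3 untreated, 70.7 to 255 in U373neo UV and 189.6 to 572 in U373neo untreated. The PXDN difference did not pass on single arrays (limma adjusted p = 0.12), with the serial range as a term (1.09, limma adjusted p = 0.127) or in range A alone (1.37, limma adjusted p = 0.225), and the LAMC1 difference passed in all 22 alternatives (0.46 to 0.57).

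Next in size among probes that did not pass were ITGB6 (1.10, limma adjusted p = 0.255), COL7A1 (0.66, limma adjusted p = 0.0821), COL27A1 (0.62, limma adjusted p = 0.0578), ADAM9 (0.52), LAMB1 (0.50, limma adjusted p = 0.103), COL2A1 (0.50, limma adjusted p = 0.154), ADAMTS13 (0.48), ITGB1 (0.45, limma adjusted p = 0.399) and ADAM10 (0.44, limma adjusted p = 0.0618). Leaving out U373neo UV replicate 1 put COL7A1 (0.86, limma adjusted p = 0.00823) and COL2A1 (0.65, limma adjusted p = 0.0422) past the threshold. Leaving out U373cc3 UV replicate 3 did so for ADAM10 (0.51, limma adjusted p = 0.0379), and leaving out U373neo untreated replicate 2 for MMP2 (0.57, limma adjusted p = 0.046). The lowest difference was that of ITGA4 at -0.36 (limma adjusted p = 0.178).

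Gene length was set beside the UV change, since long genes fell more over the whole array. For 40 genes, those over 100 kb had a median log2 change of 0.30 in U373cc3 and -0.22 in U373neo (13 genes), against -0.22 in U373cc3 and -0.42 in U373neo over all 1325 genes of that length. Those of 30 to 100 kb had 0.34 in U373cc3 and 0.11 in U373neo (17 genes), against -0.13 in U373cc3 and -0.18 in U373neo over 2605 genes. Those under 30 kb had 0.27 in U373cc3 and 0.15 in U373neo (10 genes), against 0.165 in U373cc3 and 0.245 in U373neo over 4018 genes. As a description across genes that share arrays, the rank correlation of the change with length was -0.15 in U373cc3 and -0.22 in U373neo for the 40 genes. Over 7948 genes it was -0.40 in U373cc3 and -0.54 in U373neo. The difference of the UV changes, U373cc3 minus U373neo, had a median of 0.25 for the 13 genes over 100 kb. Over all genes of that length it was 0.165, and under 30 kb -0.11. Its rank correlation with length was 0.18 for the 40 genes and 0.35 for all. LAMC1 and PXDN are both over 100 kb, and the part of length in their differences was not tested.

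**Figure D4:**
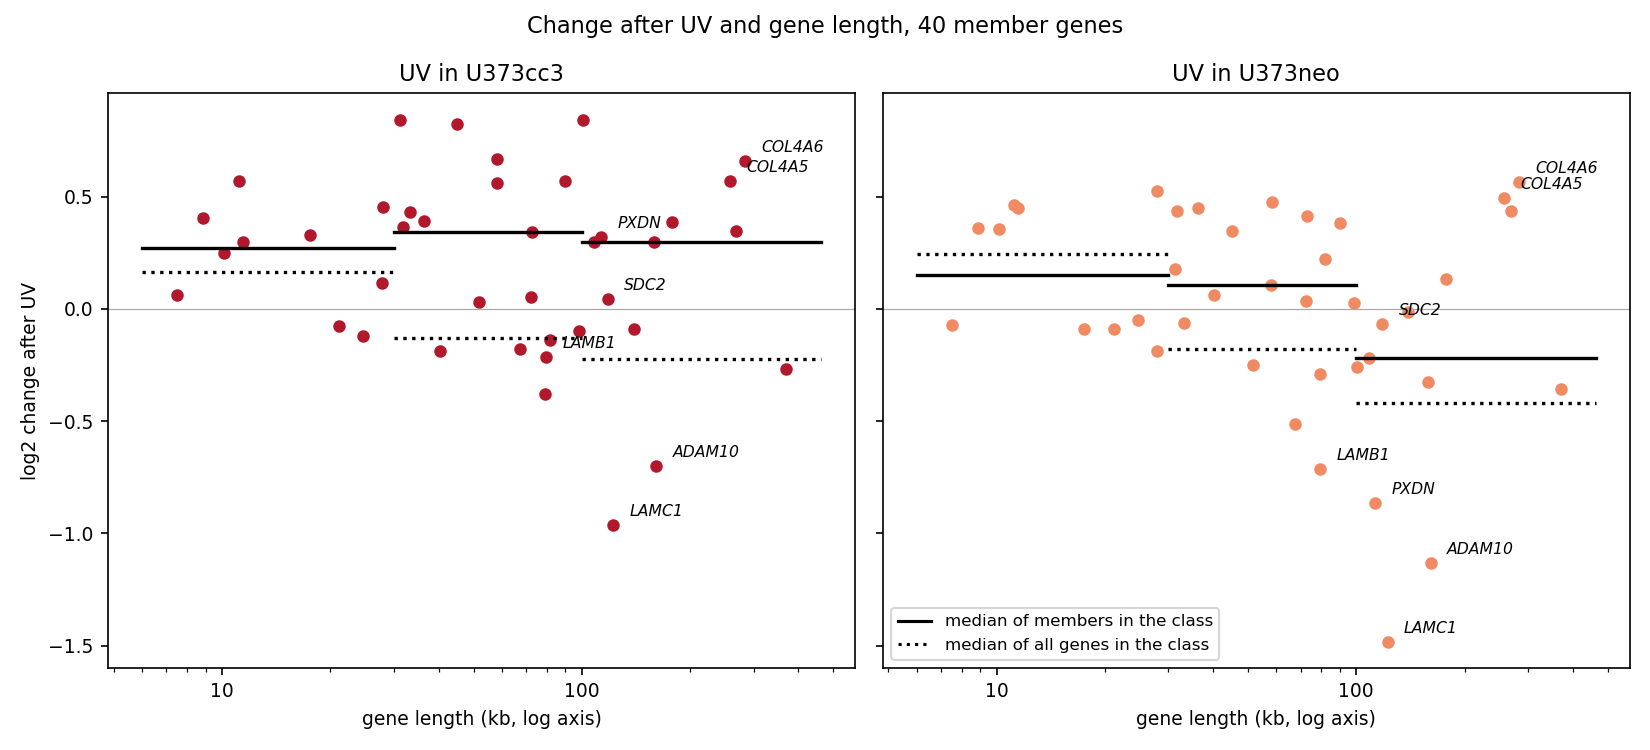
Log2 change after UV of the 40 genes (vertical axis) against gene length in kb on a log axis, in U373cc3 on the left and U373neo on the right, with solid lines for the median of these genes in each length class and dotted lines for that of all genes. Genes over 100 kb range from -0.96 to 0.84 in U373cc3 and from -1.48 to 0.56 in U373neo.

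By intensity, the median UV change in U373cc3 was 0.31 for the 12 probes under 200, 0.27 for the 18 from 200 to 1000 and 0.18 for the 13 above 1000. The matching medians over all probes were 0.09, 0.07 and 0.05. In U373neo the medians were -0.08, 0.08 and 0.03 in the same order, and over all probes 0.06, 0.08 and 0.06. No probe of the 51 had a group mean above 60000, near the scanner's limit, and the highest was 26601. Position on the chromosome was also looked at for the untreated clones. The 40 nearest genes had a median difference of 0.02 around SDC2, 0.07 around MMP2, -0.00334 around ITGA7, 0.08 around LUM and 0.06 around PXDN. On chromosome 11, where the median over 497 genes was -0.47 in U373cc3 relative to U373neo, MMP10 gave 0.06 and ADAMTS15 0.03.

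Genes that work with these proteins were read from lists chosen with earlier results of the data known. Of 17 probes for collagen processing and crosslinking, 5 were higher and 2 lower in U373cc3 untreated, and 7 higher and 3 lower after UV. Over all probes 20.8% were higher and 17.3% lower untreated, and 18.2% higher and 19.8% lower after UV, which is the background for each of these lists. The median of the 17 was 0.11 untreated and 0.19 after UV, beside 0.01 for all in each. PLOD3, a lysyl hydroxylase, was higher by 0.60 (limma adjusted p = 0.000573), and LOXL1, a lysyl oxidase, was at -0.55 (limma adjusted p = 0.00267), both untreated. Of 11 probes for other matrix glycoproteins, 6 were higher and 2 lower untreated, and of 10 after UV 4 were higher and 2 lower, with medians of 0.44 untreated and 0.345 after UV. SPP1, osteopontin, an integrin ligand measured untreated alone, was 20.5-fold higher (limma adjusted p = 7.96e-11), and SPARCL1, a relative of SPARC, was 3.13-fold higher (limma adjusted p = 6.57e-06). Of 11 probes for other proteoglycans, 4 were higher and 4 lower untreated, with a median of -0.19. SPOCK1, testican-1, was 10.9-fold higher untreated (limma adjusted p = 7.14e-10) and 12.9-fold after UV (limma adjusted p = 9.28e-10), while TGFBR3, betaglycan, was 2.45-fold lower untreated (limma adjusted p = 0.000145).

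Of 38 probes for the integrin adhesion complex, 8 were higher and 6 lower in untreated U373cc3 cells, and 11 higher and 9 lower after UV, with medians of -0.05 untreated and 0.13 after UV. Set against no UV, 9 of the 38 were higher and 12 lower in U373cc3 and 11 higher and 14 lower in U373neo, beside the shares of all probes (30.8% higher and 26.9% lower in U373cc3, 32.8% higher and 26.7% lower in U373neo). KANK1, which links talin to microtubules at adhesions, changed by -1.45 after UV in U373cc3 and by -1.78 in U373neo. Of 16 probes for the plasminogen system, cathepsins and other inhibitors, 9 were higher and 1 lower after UV in U373cc3, and 12 higher and 1 lower in U373neo, with a median of 0.31 in U373cc3 and 0.45 in U373neo, beside the same shares. Untreated, 6 of them were higher and 3 lower in U373cc3, SERPINI1, neuroserpin, by 3.10-fold and 3.74-fold at its 2 probes. Of 7 melanocyte markers, 3 had values untreated (GPM6B, MITF and TYRP1). They summed to 5542 to 5680 in U373cc3 untreated, against 1178 to 1473 in U373neo untreated. GPM6B was 14.8-fold higher in U373cc3, and its log2 difference of 3.89 was the highest of the 3. The median of the 3 was 1.01 and the lowest 0.36. The 4 astrocyte and glioma markers summed to 2749 to 3087 in U373cc3 untreated, against 3297 to 3609 in U373neo untreated, with SOX9 higher and CHI3L1, EGFR and SLC1A2 lower in U373cc3. The endothelial marker CDH5, the 1 of 6 with values, was higher by 0.35 untreated (limma adjusted p = 0.00894) and 0.68 after UV (limma adjusted p = 9.61e-05). Of 6 neuron marker probes, 3 were higher and 0 lower in U373cc3 untreated, beside 20.8% higher and 17.3% lower of all probes. Their log2 differences ran from -0.34 to 0.43 untreated, and none passed between the clones after UV. The part of these markers in the differences above was not tested. Markers of epithelium had values for 0 of 9 genes.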

How the data were processed

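RNA of 12 biological replicates, 3 technical arrays each, was labelled with Cy5 and hybridized to Human OneArray chips. According to the methods, the authors scanned the chips with GenePix and normalized averaged probe intensities by quantiles in GeneSpring GX. The deposited values are linear intensities per probe and array, and why some probes are blank is not given in the sources used here. Symbols came from the platform annotation, updated through a RefSeq gene table of GRCh38.p14 (9615 of 9659 named probes matched), and 3382 probes were unnamed.

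Intensities were taken to log2, technical arrays averaged, and the 12 replicates fitted with limma 3.58.1 in R 4.3.3, with Benjamini-Hochberg adjustment over all probes of a comparison and a threshold of 0.05. Probes on 1 set of arrays were fitted on its 6 replicates. For UV, a joint quantile normalization of the 36 arrays was made on the 11602 shared probes. The 3 biological replicates in each group limit the precision. Members and lists were chosen with earlier results of these data known. Named were probes that passed with a 2-fold change, those whose UV change differed between clones, and the largest rise and fall of each class in each comparison. Where probes of a gene ran the same way, the brightest stands for it. Replicate numbers did not pair the samples: deviations of samples with the same number correlated at -0.338 to 0.367, those with different numbers at -0.39 to 0.345.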

Additional observations from a re-analysis of the deposited data

Results flagged for a closer look

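The UV change of 2 genes differed between the clones in the test of that difference. For PXDN the difference, U373cc3 minus U373neo, was 1.19 on the log2 scale, from a change of 0.32 in U373cc3 and -0.87 in U373neo. For LAMC1 it was 0.52, from -0.96 in U373cc3 and -1.48 in U373neo. No other of the 43 probes passed on replicate means over all 12 replicates. On single arrays LAMB1 (0.50, limma adjusted p = 0.00723), COL27A1 (0.62, limma adjusted p = 0.0369) and ADAM10 (0.44, limma adjusted p = 0.0405) passed as well and PXDN did not.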

How the results depend on the processing

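Of the calls made between clones, 17 of 26 untreated and 18 of 24 after UV were lost under no alternative that tested them. Some alternatives left called probes untested. Joint normalization did so for 2 untreated. Leaving out probes under 200 did so for 2 untreated, 2 after UV, 4 for UV in U373cc3 and 3 for UV in U373neo. For UV, 12 of 23 in U373cc3 and 12 of 21 in U373neo held in this sense, and 1 of 2 differences between clones. The share of calls that held over all probes was not computed, so these counts cannot be set against the whole array. After Benjamini-Hochberg, the methods' t-test called 9 probes higher in U373cc3 untreated in place of 15. It called 12 higher after UV in U373cc3 in place of 20. Over all probes it called 1593 higher in U373cc3 untreated in place of 2564. For UV in U373cc3 it called 2539 of all probes higher in place of 3573. On deposited values, UV in U373cc3 gave 13 higher and 9 lower, beside 2531 higher and 4025 lower of all probes. With arrays centred on their medians, UV in U373neo gave 5 lower in place of 8, and COL16A1 there was at 0.11 in place of -0.25. Over all probes this centring gave 2628 lower in place of 3101. In place of 3 lower after UV in U373cc3, single arrays gave 5 and the serial range as a term 6. Over all probes these settings gave 3291 and 3406 lower in place of 3121. For the difference of the UV changes the main fit gave 2 higher and 0 lower. Single arrays gave 4 higher and 0 lower, and the serial range as a term 3 higher and 2 lower. The methods' t-test unadjusted gave 8 higher and 1 lower. Over all probes that difference passed at 716, 253 higher and 463 lower. Single arrays gave 541 higher and 863 lower of all probes, and the serial range as a term 641 and 1162. The unadjusted t-test gave 1053 and 1594, and the replicate block 152 and 296. The cause was not tested.

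Leaving out 1 replicate in turn gave 13 to 15 higher and 9 to 12 lower between clones untreated, 14 to 16 higher and 7 to 8 lower after UV, 14 to 17 higher and 2 to 4 lower for UV in U373cc3, 12 to 15 higher and 6 to 8 lower for UV in U373neo, and 2 to 4 higher and 0 lower for their difference, with 4 without U373neo UV replicate 1. Over all probes, leaving out 1 replicate gave 2087 to 2664 higher and 1798 to 2294 lower between clones untreated. After UV it gave 1846 to 2109 higher and 1967 to 2366 lower. For UV in U373cc3 it gave 2944 to 3224 higher and 2739 to 2990 lower. For UV in U373neo it gave 3390 to 3709 higher and 2882 to 2958 lower. For the difference of the UV changes it gave 98 to 424 higher and 132 to 553 lower of all probes. Both highest counts came without U373neo UV replicate 1. With a replicate block the counts were 14 higher and 10 lower untreated, and 16 and 8 after UV. They were 17 and 3 for UV in U373cc3, 14 and 8 for UV in U373neo, and 2 and 0 for the difference. Over all probes the block gave 2393 higher and 2068 lower untreated, and 2113 and 2338 after UV. For UV it gave 3437 higher and 3037 lower in U373cc3, and 3715 and 3043 in U373neo. For the difference it gave 152 higher and 296 lower. The replicate numbers are shared only by name. Dim probes limit the rest, since 12 of the 51 stayed under 200 in every group.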
